A study of Homo sapiens with 6 samples.

Results

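Solute carriers are the membrane proteins that move sugars, amino acids, metabolic acids, nucleosides, vitamins, metals and ions across the plasma membrane and the membranes of organelles. The transcripts described here are the 65 entries of the deposited table that carry an Ensembl gene ID and a symbol beginning with SLC and a digit, after SLC2A1, SLC2A3, SLC7A11 and SLC25A20 had been set aside. They are 65 of 2681 entries, all 65 were among the 2675 entries fitted, and they belong to 29 solute carrier families. GENCODE release 29 lists 370 protein-coding solute carrier genes in 50 families once the same 4 are set aside. A carrier without an entry was not analysed here.

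The cells were Hep3B, an established human line from a hepatocellular carcinoma. Messenger RNA libraries were sequenced from 3 samples kept at 20% oxygen (normoxia) and 3 kept at 1% oxygen (hypoxia) for 24 hours. All 6 samples carry the genotype label WT and a treatment label that reads genetic modification, with no gene named, and the extraction text speaks of subclones, and these labels are the same in both groups. The labels do not say whether the 3 samples of a group came from separate cultures. The p-values therefore reflect spread among these libraries, and that spread may be technical.

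Solute carriers work as facilitators, which let a solute run down its gradient, or as secondary active transporters, which use the gradient of sodium, protons or another solute to drive a substrate uphill. In liver they take up fuels, amino acids and vitamins from blood, export bile acids, lactate and iron, and, in the inner mitochondrial membrane, exchange metabolites between the matrix and the cytosol. Cells that rely on glycolysis export lactate together with protons, and low oxygen is known to raise several carriers of glucose and lactate through the hypoxia-inducible factors.

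The table had been cut by the authors to entries with a false discovery rate below 0.01 and an absolute log2 fold change above 1, so each carrier was already selected as changed on these 6 samples. With edgeR's quasi-likelihood test and Benjamini-Hochberg adjustment at 0.05, the background was that 100% of the 2675 entries were called, and all 65 carriers were called too, which says nothing particular about them. What the table does give is direction, size, level and the spread between libraries. Normalized counts are the deposited counts divided by a library scale recovered from the authors' fold changes, and in each sentence of values below the 3 libraries at 20% oxygen come first, in the order of their replicate numbers, followed by the 3 at 1% oxygen. Fold changes are 1% over 20% oxygen. Listed counts summed to between 5474340 and 6128735 per normoxia library and between 9904132 and 10132729 per hypoxia library, which are totals of selected entries and not library depths. Of the markers looked up for hepatocytes, 2 of 5 had an entry, ALB and AFP, both lower at 1% oxygen (log2 fold changes -1.28 and -2.05). Of the markers of other cells, CDH5 (endothelial, 1 of 4) and CD68 (leukocyte, 1 of 4) had entries, both higher, and 0 of 5 fibroblast markers did. The labelled line could not be checked further from a table of selected entries. In bulk samples, fewer cells of a type and less RNA per cell cannot be told apart.

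Libraries of a group differed in a way that moved with the GC content of the transcripts. Spearman's rho between a carrier's deviation from its group mean and its GC content, over the 65 carriers, was 0.738, -0.102 and -0.784 in normoxia replicates 1 to 3 and -0.517, 0.709 and -0.726 in hypoxia replicates 1 to 3. Over all 2485 entries with a GC value it was 0.568, -0.106 and -0.577, and -0.463, 0.599 and -0.53, so the trend was one of the whole table and not of the carriers alone. The points of such a correlation share their library, and it is given as a description. Normoxia replicate 1 and hypoxia replicate 2, where rho was positive, were both the highest of their group for 23 of the 65 carriers and both the lowest for 24. The median GC content was 56.5% in carriers that were higher at 1% oxygen and 49.9% in those that were lower. Over all entries with a GC value these medians were 54.9% and 47.6%, so a similar gap ran through the whole table. The part of GC content in the directions was not tested. Without normoxia replicate 1 and hypoxia replicate 2, a setting chosen after seeing the data, 28 carriers were higher and 37 lower, and the log2 fold changes moved by a median of 0.0597. The libraries kept in that setting include those with a negative rho.

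**Figure D1:**
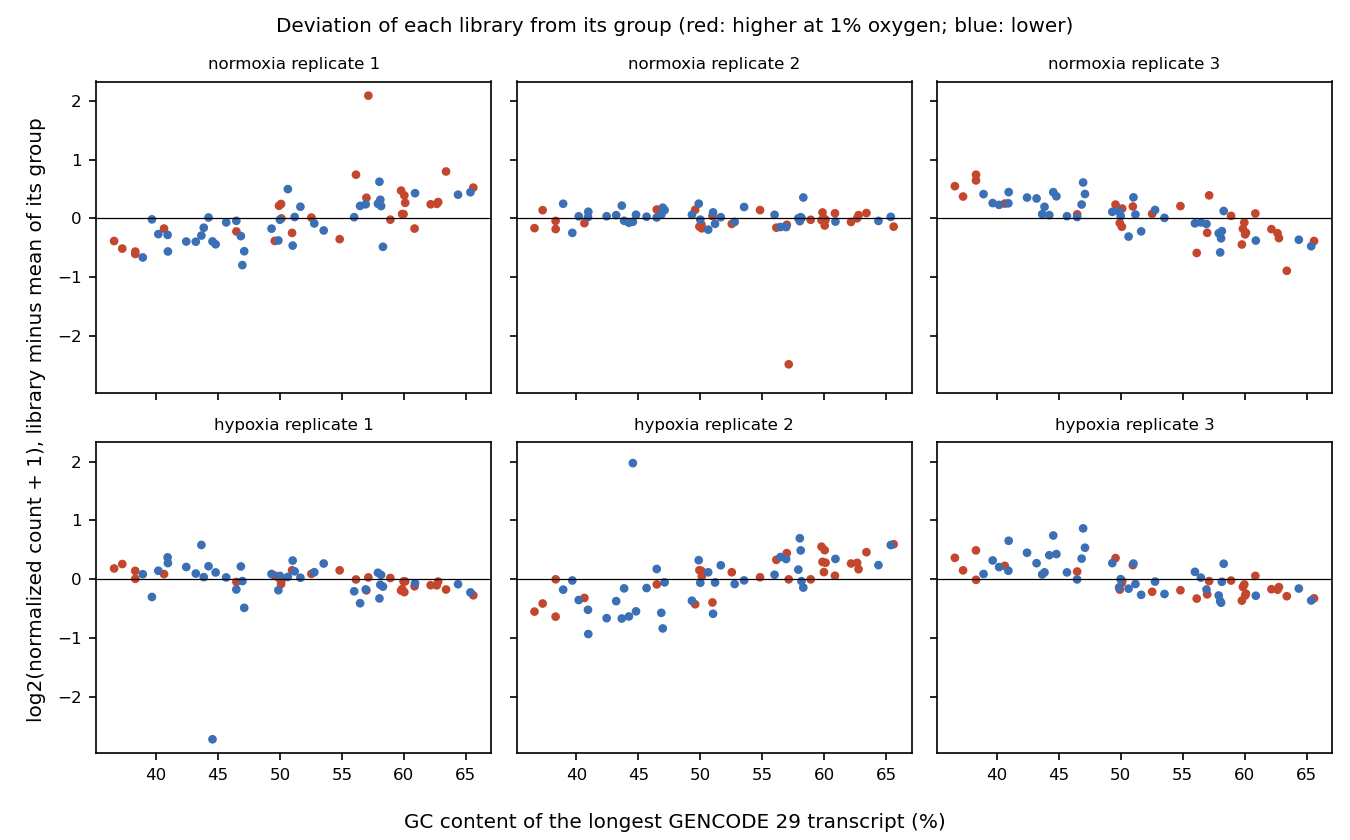
Deviation of each of the 65 carriers from its group mean (vertical axis, log2 scale) against the GC content of its transcripts (horizontal axis, percent), one panel per library. Normoxia replicate 1 and hypoxia replicate 2 slope upward (rho 0.738 and 0.709), normoxia replicate 3, hypoxia replicate 1 and hypoxia replicate 3 slope downward (-0.784, -0.517 and -0.726), and normoxia replicate 2 has a rho of -0.102.

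At 1% oxygen 28 carriers rose and 37 fell. Risers were 43.1% of the carriers, against 56.7% of all 2675 entries, and fallers made up the rest, against 43.3%. Among risers the median log2 fold change was 1.61, the same as over all entries that rose, and among fallers it was -1.50 against -1.36. The normalized counts of the groups did not overlap for 64 of 65 carriers, against 99.6% of all entries. The share past a test for a change larger than 2-fold (edgeR's glmTreat) was 40 of 65, with 19 higher and 21 lower, near the 62.4% of all entries. The split depended on the library scale: with median-of-ratios size factors over the listed entries 18 carriers rose and 37 fell, which put the risers at 32.7% of the carriers called, against 46.3% of all entries called. The 10 that then missed the threshold were SLC5A12, SLC2A13, SLC47A1, SLC39A13, SLC27A1, SLC12A4, SLC16A5, SLC25A1, SLC6A20 and SLC25A36, with adjusted p between 0.0541 and 0.389, and 4 of them (SLC27A1, SLC25A1, SLC6A20 and SLC25A36) also missed it with TMM scaling. Those scalings assume that most entries are unchanged, and they moved all fold changes down together, and TMM shifted the median entry by -0.53 (log2). The scale recovered from the FPKM values, which rests on library totals, also shifted the median entry down, by -0.27, and all 65 calls were kept. No carrier changed direction under any scaling tried. Each had been selected past 1 on the log2 scale, and these scalings moved the carriers by less than that, so no reversal could occur.

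**Figure D2:**
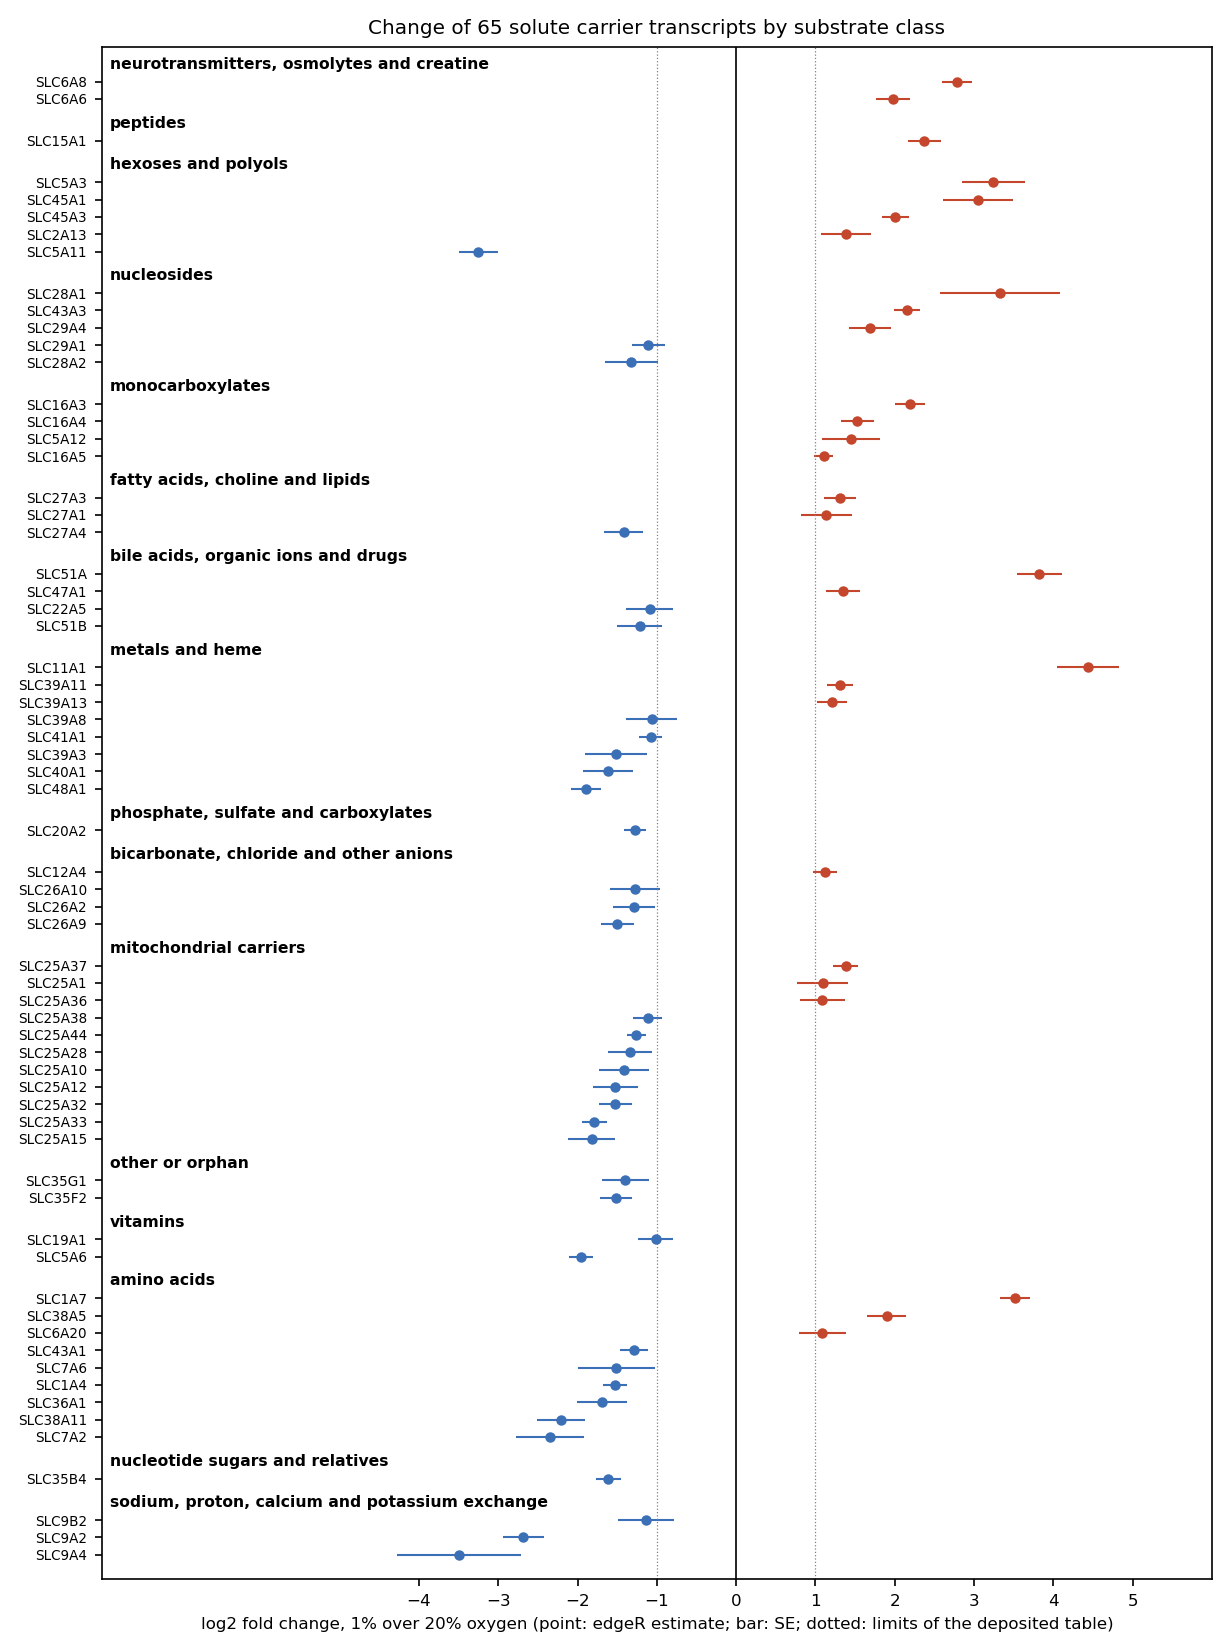
Log2 fold change, 1% over 20% oxygen, of the 65 carriers grouped by substrate, with standard errors as bars. Points right of 0 are the 28 carriers that rose and points left of 0 the 37 that fell; all 4 monocarboxylate carriers lie to the right and 8 of 11 mitochondrial carriers to the left.

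Of 15 genes classed as monocarboxylate carriers, mainly by family, 4 had an entry, and all 4 rose. The class does not mean that each member carries lactate. SLC16A3, which encodes MCT4, the carrier that exports lactate and a proton from glycolytic cells, had normalized counts of 10500.4, 8865 and 7430.3 at 20% oxygen and 37698, 49114 and 35814 at 1% oxygen, and it rose 4.58-fold (log2 fold change 2.19, SE 0.19, adjusted p = 3.71e-05). Every library at 1% oxygen lay far above every library at 20% oxygen. SLC16A5 (MCT6), of the same family, had 3485, 3307 and 3158 at 20% oxygen and 6949, 7747 and 6697 at 1% oxygen and rose 2.15-fold (log2 fold change 1.10, SE 0.12, adjusted p = 9.84e-05). Its groups were tight and well apart, although its call was lost with median-of-ratios scaling. SLC16A4 (MCT5), a family member with less well defined substrates, had 269, 287 and 362 at 20% oxygen and 928, 700.1 and 1022 at 1% oxygen and rose 2.88-fold (log2 fold change 1.53, SE 0.21, adjusted p = 0.000245). Its groups were again separate. SLC5A12, a sodium-coupled carrier of lactate best known from kidney, was scarce, with 24.6, 32.3 and 62.3 at 20% oxygen and 109.7, 109 and 108 at 1% oxygen, and rose 2.74-fold. Its 3 hypoxia libraries were nearly equal while those at 20% oxygen were spread. Like that of SLC16A5, its call was lost with median-of-ratios scaling (log2 fold change 0.66, adjusted p = 0.128). BSG, the chaperone that MCT4 needs to reach the cell surface, rose 2.88-fold (log2 fold change 1.52, SE 0.26, adjusted p = 0.000671). The mitochondrial pyruvate carrier, which is no solute carrier by name, had its subunits in opposite directions, MPC1 lower (log2 fold change -1.82) and MPC2 higher (1.20).

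Of 29 carrier genes for hexoses and polyols, 4 rose and 1 fell. SLC5A3 encodes SMIT1, which takes up the osmolyte myo-inositol with sodium. It had 822, 1213 and 1956 at 20% oxygen and 13222, 7712 and 16827 at 1% oxygen, a 9.46-fold rise (log2 fold change 3.24, SE 0.40, adjusted p = 0.000155). The hypoxia libraries were uneven, replicate 2 being the lowest, yet all lay several-fold above normoxia. The gene spans 34073570 to 34106262 on chromosome 21 (GRCh38, GENCODE 29) and lies within MRPS6. Of its transcript sequence 1.38% also occurs in other genes, most in MRPS6, and reads of that part could count for either. Its relative SLC5A11 (SMIT2), another sodium-coupled inositol carrier, moved the other way, with 1081, 843 and 890.0 at 20% oxygen and 72.4, 126 and 98.3 at 1% oxygen, and it was 9.50-fold lower (log2 fold change -3.25, SE 0.25, adjusted p = 2.25e-05). The groups were far apart. SLC2A13 (HMIT), which couples myo-inositol to protons, went from 687 ± 246 (SD, n = 3) to 1796 ± 545 normalized counts and rose 2.61-fold. SLC45A1, a proton-associated sugar carrier, had 66.2, 40.2 and 19.9 at 20% oxygen and 302, 469 and 279 at 1% oxygen and rose 8.32-fold (log2 fold change 3.05, SE 0.44, adjusted p = 0.000326). Its counts at 20% oxygen were low and scattered. SLC45A3 (prostein), of the same family, had 129, 128 and 134 at 20% oxygen and 533, 525 and 518 at 1% oxygen and rose 4.02-fold (log2 fold change 2.01, SE 0.17, adjusted p = 3.39e-05), with hardly any spread within either group.

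By mean FPKM over the 6 libraries the most abundant of the 65 carriers was that of creatine. SLC6A8, which imports creatine with sodium and chloride, had 14312, 11624 and 10679 at 20% oxygen and 77879, 100536 and 74287 at 1% oxygen, and it rose 6.90-fold (log2 fold change 2.79, SE 0.19, adjusted p = 1.32e-05). The groups lay far apart and normoxia replicate 1 was the highest of its group, as hypoxia replicate 2 was of its own. SLC6A6, the taurine carrier TauT, had 8746, 10676 and 11939.7 at 20% oxygen and 45029.7, 30804 and 47816 at 1% oxygen and rose 3.94-fold (log2 fold change 1.98, SE 0.21, adjusted p = 8.17e-05). Here the same pair of libraries was the lowest of each group. These were 2 of 14 carrier genes for neurotransmitters, osmolytes and creatine, and both rose. Of the 50-base words of SLC6A8 transcripts 11.1% also occur in other genes, most in AC133561.1, so how reads were assigned there could affect its level. Such shared sequence made up more than 10% in 9 of the 65 carriers, SLC16A3 among them (10.2%, most in CSNK1D).

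Among 50 amino acid carrier genes 9 had an entry, 3 higher and 6 lower. SLC1A7 (EAAT5), a glutamate transporter known from retina, had 559.8, 570.4 and 470.3 at 20% oxygen and 5378, 7408 and 5512 at 1% oxygen and rose 11.4-fold (log2 fold change 3.51, SE 0.18, adjusted p = 5.56e-06). Its groups were narrow and far apart. SLC38A5 (SNAT5), which carries glutamine, asparagine, histidine and serine, had 2619, 1904 and 1732 at 20% oxygen and 6651, 10312 and 6345 at 1% oxygen and rose 3.73-fold (log2 fold change 1.90, SE 0.25, adjusted p = 0.000196). Hypoxia replicate 2 was the highest library. SLC6A20, the proline and imino acid carrier SIT1, went from 69.3 ± 15.1 (SD, n = 3) to 147 ± 39.0 normalized counts and was among those whose call depended on the scaling, also with limma on log2(FPKM + 1) (adjusted p = 0.0539). Its deposited FPKM overlapped between the groups, with 0.476 in normoxia replicate 3 and 0.436 in hypoxia replicate 2. The dipeptide carrier SLC15A1 (PEPT1), 1 of 5 peptide carrier genes, had 59.6, 77.4 and 73.1 at 20% oxygen and 351, 341 and 397 at 1% oxygen and rose 5.19-fold (log2 fold change 2.37, SE 0.21, adjusted p = 3.96e-05), with no library of either group near the other.

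The amino acid carriers that fell included importers of cationic and neutral amino acids. SLC7A2 (CAT2), which takes up arginine, lysine and ornithine, had 567, 907 and 1143 at 20% oxygen and 187, 80.6 and 244 at 1% oxygen and was 5.12-fold lower (log2 fold change -2.35, SE 0.42, adjusted p = 0.000961). The lowest normoxia library still exceeded the highest at 1% oxygen. SLC38A11, a family member of SLC38A5, had 188, 232 and 273 at 20% oxygen and 62.4, 33.2 and 53.2 at 1% oxygen and was 4.67-fold lower (log2 fold change -2.21, SE 0.30, adjusted p = 0.000246). SLC36A1 (PAT1), which releases small amino acids from lysosomes with protons, had 419.8, 621 and 742 at 20% oxygen and 220.3, 117 and 213 at 1% oxygen and was 3.24-fold lower (log2 fold change -1.69, SE 0.31, adjusted p = 0.0011). In both genes replicate 1 at 20% oxygen was the lowest of its group but stood above every library at 1% oxygen. SLC1A4 (ASCT1), an exchanger of alanine, serine and cysteine, fell by 1.53 on the log2 scale from 1244 ± 30.0 (SD, n = 3) to 432 ± 52.3 normalized counts, and SLC43A1 (LAT3), a carrier of branched-chain amino acids and phenylalanine, fell by 1.29 from 686 ± 100.9 (SD, n = 3) to 281 ± 12.7 normalized counts. SLC7A6 (y+LAT2) was the carrier whose groups overlapped: it had 457, 899 and 1210.4 at 20% oxygen and 262, 149 and 487 at 1% oxygen. Its normoxia replicate 1 lay below hypoxia replicate 3, and without normoxia replicate 3 the call was lost (log2 fold change -1.17, adjusted p = 0.0516). Of its transcript sequence 57.1% also occurs in other genes, most in SLC7A6OS, which lies on the opposite strand, and whether counting used strand is not given in the sources used here.

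**Figure D3:**
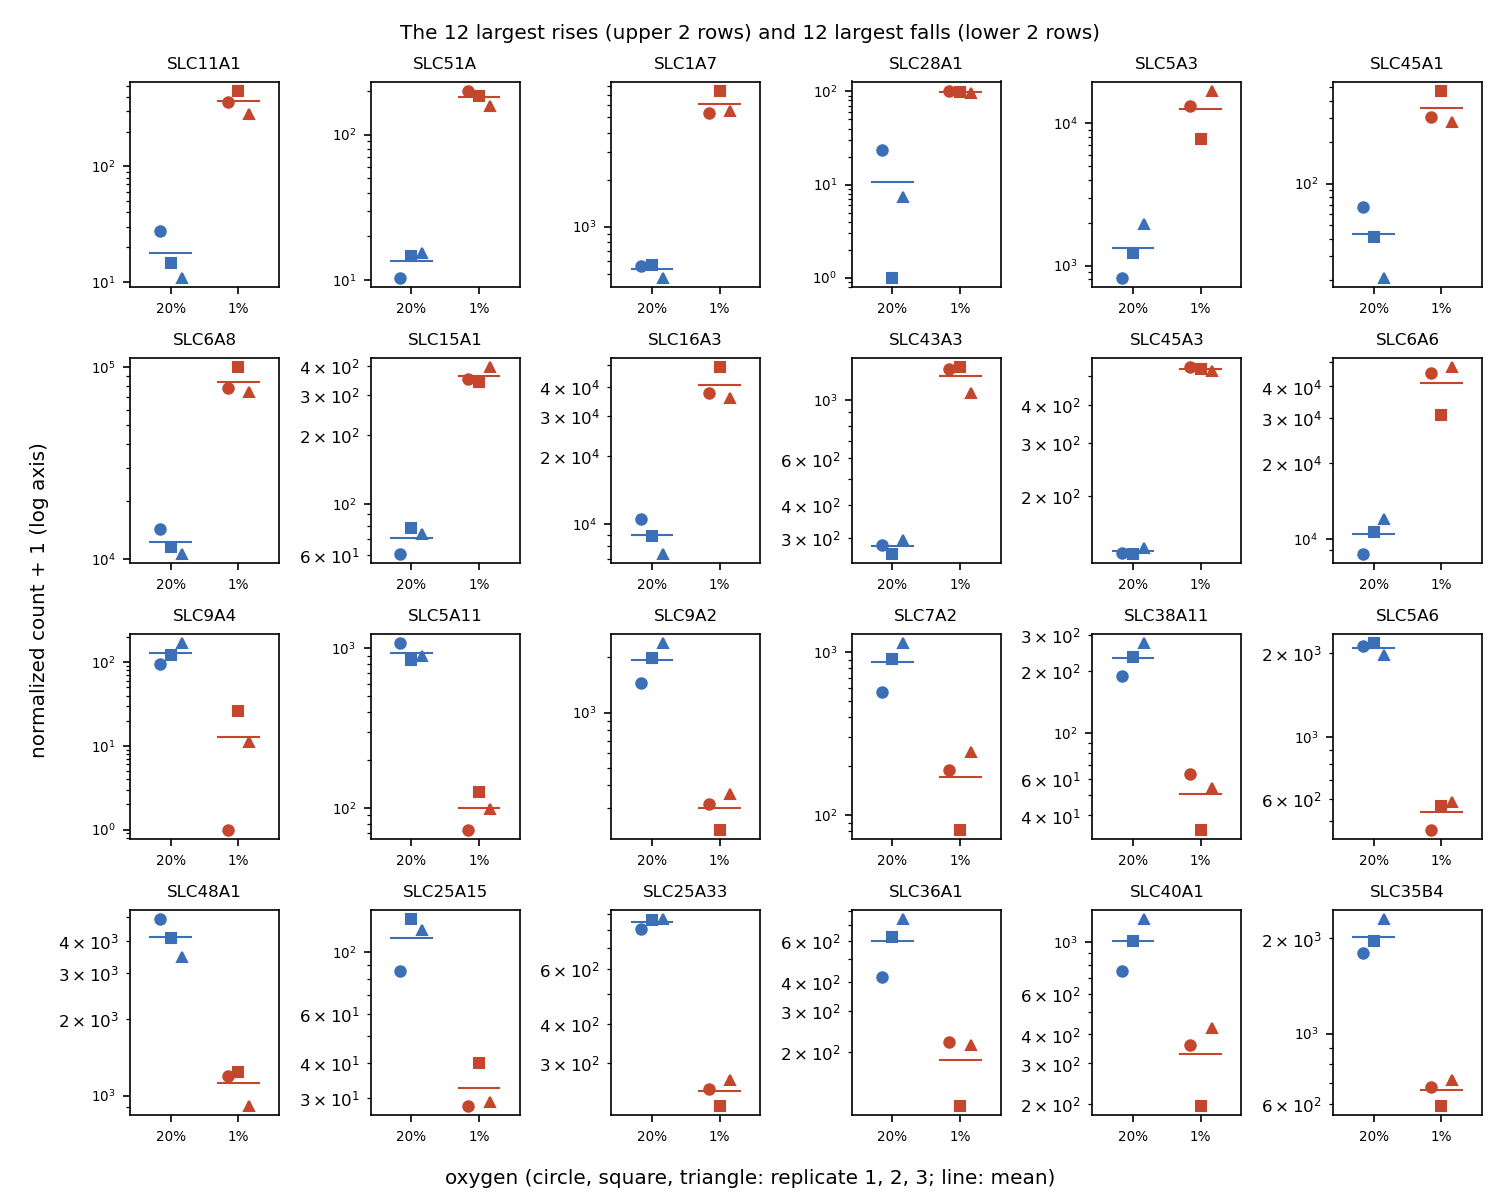
Normalized counts in every library (log axis) of the carriers with the largest rises and falls, 3 libraries at 20% oxygen and 3 at 1% oxygen. For each carrier shown the groups do not overlap, and SLC28A1 and SLC9A4 each have 1 library at 0.

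Carriers of the inner mitochondrial membrane had 11 entries of 47 genes, 3 higher and 8 lower. SLC25A15 (ORC1), which brings ornithine into the matrix for the urea cycle, had 84.2, 130.4 and 119 at 20% oxygen and 27.2, 39.1 and 28.1 at 1% oxygen and was 3.54-fold lower (log2 fold change -1.82, SE 0.30, adjusted p = 0.000577). SLC25A33 (PNC1), a carrier of pyrimidine nucleotides, had 804, 859.6 and 865 at 20% oxygen and 248, 219 and 264 at 1% oxygen and was 3.46-fold lower (log2 fold change -1.79, SE 0.16, adjusted p = 3.88e-05). The second of these was close to equal within each group, and neither overlapped between groups. Of the transcript sequence of SLC25A33 21.6% also occurs in other genes, most in AC135977.1. SLC25A12 (aralar), which exchanges aspartate for glutamate in the malate-aspartate shuttle, fell by 1.52 on the log2 scale. SLC25A32, a carrier for folate and flavin adenine dinucleotide, fell by 1.53. However, 97.5% of its transcript sequence also occurs in other genes, most in AC012213.5, which overlaps it. SLC25A10, the dicarboxylate carrier of malate, succinate and phosphate, had 13679, 10232 and 7238 at 20% oxygen and 3188, 5572 and 2899 at 1% oxygen and was 2.67-fold lower (log2 fold change -1.42, SE 0.31, adjusted p = 0.00268). It had the highest mean FPKM at 20% oxygen among the 11 mitochondrial carriers described here. However, 59.3% of its sequence also occurs in other genes, most in AC139530.2, so its level is uncertain. SLC25A44, which imports branched-chain amino acids, fell by 1.26. SLC25A38, which supplies glycine for heme synthesis, fell by 1.12.

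The mitochondrial carriers that rose were SLC25A1, SLC25A36 and SLC25A37. SLC25A1, which exports citrate for fatty acid synthesis, had 8733, 5512 and 4655 at 20% oxygen and 10619, 19374 and 10242 at 1% oxygen and rose 2.13-fold (log2 fold change 1.09, SE 0.32, adjusted p = 0.0102). Its lowest hypoxia library was only slightly above its highest normoxia library. SLC25A36 (PNC2), like SLC25A33 a pyrimidine nucleotide carrier, had 187, 295 and 347 at 20% oxygen and 687, 431 and 638 at 1% oxygen and rose 2.12-fold (log2 fold change 1.08, SE 0.28, adjusted p = 0.00587), the smallest rise among the carriers. Its deposited FPKM overlapped between the groups, with 0.932, 1.82 and 4.05 at 20% oxygen and 3.62, 1.92 and 3.13 at 1% oxygen. SLC25A37 (mitoferrin 1), which brings iron into the matrix, rose 2.61-fold from 929 ± 143 (SD, n = 3) to 2422 ± 212 normalized counts (log2 fold change 1.38, SE 0.16, adjusted p = 0.000119). Its homologue SLC25A28 (mitoferrin 2) fell by 1.34 on the log2 scale from 728 ± 163 (SD, n = 3) to 287 ± 93.1 normalized counts. The ratio of SLC25A37 to SLC25A28 counts, which no library scale affects, was 1.30 ± 0.160 (SD, n = 3) at 20% oxygen and 8.86 ± 2.09 at 1% oxygen, a pair chosen after its values were seen. The sideroflexins, mitochondrial carriers outside the family, had 3 of 5 genes listed, SFXN3 higher (log2 fold change 2.38) and SFXN2 and SFXN4 lower (-1.89 and -1.31).

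Of 33 carrier genes for metals and heme 3 rose and 5 fell. SLC11A1 (NRAMP1), a divalent metal transporter of phagosomes in macrophages, had 26.5, 13.7 and 9.93 at 20% oxygen and 357, 450.2 and 285 at 1% oxygen and rose 21.8-fold (log2 fold change 4.44, SE 0.39, adjusted p = 3.93e-05), the largest rise of the 65. It was barely detected at 20% oxygen and well detected in each hypoxia library. The leukocyte marker CD68 rose as well, from 2303 ± 236 (SD, n = 3) to 9209 ± 1289 normalized counts, and the other 3 leukocyte markers had no entry. The labels name Hep3B cells, a cultured line, and whether any other cells had a part in the SLC11A1 rise was not tested. The zinc carriers SLC39A11 (ZIP11) and SLC39A13 (ZIP13) rose 2.47-fold and 2.30-fold, while SLC39A3 (ZIP3) and SLC39A8 (ZIP8) fell by 1.52 and by 1.07 on the log2 scale. SLC48A1 (HRG1), which moves heme out of lysosomes, had 4897, 4124 and 3459.7 at 20% oxygen and 1195, 1240.4 and 914 at 1% oxygen and was 3.73-fold lower (log2 fold change -1.90, SE 0.19, adjusted p = 6.14e-05). SLC40A1 (ferroportin), the iron exporter, had 749, 1009 and 1257 at 20% oxygen and 360.2, 197 and 426 at 1% oxygen and was 3.07-fold lower (log2 fold change -1.61, SE 0.32, adjusted p = 0.00146). In both, the groups were separate, with ferroportin the more scattered. The magnesium carrier SLC41A1 fell by 1.08.

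Nucleoside and nucleobase carriers had 5 of 8 genes listed. SLC28A1 (CNT1), which concentrates pyrimidine nucleosides with sodium, was close to 0 at 20% oxygen, with 22.7, 0 and 6.32 at 20% oxygen and 100.6, 98.3 and 96.3 at 1% oxygen, and it rose 10.2-fold (log2 fold change 3.33, SE 0.76, adjusted p = 0.00307). A single normoxia library set that value: without normoxia replicate 1 the log2 fold change was 4.86 and the ratio of means 31.2. SLC43A3, a purine nucleobase carrier, had 279.9, 259.7 and 292 at 20% oxygen and 1314, 1339 and 1063 at 1% oxygen and rose 4.47-fold (log2 fold change 2.16, SE 0.16, adjusted p = 2.21e-05). Of its transcript sequence 46.9% also occurs in other genes, most in AP000781.2. SLC29A4 (PMAT), which carries monoamines and adenosine, went from 1137 ± 286 (SD, n = 3) to 3662 ± 1162 normalized counts and rose 3.22-fold. The purine-preferring SLC28A2 (CNT2) and the equilibrative SLC29A1 (ENT1) fell by 1.32 and by 1.11 on the log2 scale, so that each family had a member in either direction. The ratio of SLC29A4 to SLC29A1 counts was 0.983 ± 0.111 (SD, n = 3) at 20% oxygen and 6.78 ± 0.633 at 1% oxygen.

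Both vitamin carriers listed, of 12 genes, fell. SLC5A6 (SMVT), which takes up biotin, pantothenate and lipoate with sodium, had 2109.5, 2170.0 and 1962 at 20% oxygen and 464, 564 and 584 at 1% oxygen and was 3.87-fold lower (log2 fold change -1.95, SE 0.15, adjusted p = 2.41e-05). All 3 hypoxia libraries lay near a common value, well under those at 20% oxygen. SLC19A1, the reduced folate carrier, had 2964, 2177 and 1744 at 20% oxygen and 1066, 1335 and 1013 at 1% oxygen and fell by 1.01 on the log2 scale (SE 0.22, adjusted p = 0.0025). This was the smallest fall and lies just inside the limit of the deposited table, as SLC25A36 does among the rises.

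Bile acid and organic ion carriers had 4 of 32 genes listed, 2 in each direction. SLC51A and SLC51B encode the subunits of OSTα-OSTβ, which exports bile acids and steroids across the basolateral membrane and needs both. SLC51A had 9.46, 13.7 and 14.4 at 20% oxygen and 198, 182 and 156 at 1% oxygen and rose 14.3-fold (log2 fold change 3.82, SE 0.29, adjusted p = 2.12e-05). SLC51B had 244, 151 and 139 at 20% oxygen and 78.5, 82.9 and 68.2 at 1% oxygen and was 2.33-fold lower (log2 fold change -1.22, SE 0.29, adjusted p = 0.00354). The subunits thus moved in opposite directions, and neither pair of groups overlapped. In each library the count of SLC51A divided by that of SLC51B was 0.0779 ± 0.0345 (SD, n = 3) at 20% oxygen and 2.34 ± 0.168 at 1% oxygen. SLC47A1 (MATE1), which exports organic cations, had 79.4, 70.6 and 89.4 at 20% oxygen and 200.2, 211 and 199.6 at 1% oxygen and rose 2.55-fold (log2 fold change 1.35, SE 0.21, adjusted p = 0.000473). Both groups were tight. SLC22A5 (OCTN2), the carnitine importer, fell by 1.09 on the log2 scale. The SLCO transporters of organic anions had 2 of 10 genes listed, SLCO4A1 higher (log2 fold change 2.07) and SLCO3A1 lower (-1.64). Of 27 ABC transporter genes looked up, 5 rose and 2 fell, among them ABCA7 (2.55) and ABCG2 (-2.15).

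The fatty acid transport proteins, which activate long-chain fatty acids as they enter the cell, had 3 entries, and 13 genes make up the wider class of carriers for fatty acids, choline and lipids. SLC27A3 had 634, 519 and 446 at 20% oxygen and 1276, 1589.8 and 1104 at 1% oxygen and rose 2.48-fold (log2 fold change 1.31, SE 0.20, adjusted p = 0.000449). SLC27A1 went from 414 ± 132 (SD, n = 3) to 912 ± 328 normalized counts, a 2.20-fold rise. SLC27A4 had 4871, 3487 and 2788 at 20% oxygen and 1305, 1738 and 1126 at 1% oxygen and was 2.67-fold lower (log2 fold change -1.42, SE 0.25, adjusted p = 0.00082). Its normoxia libraries were uneven but all exceeded those at 1% oxygen.

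The sodium and proton exchangers listed, 3 of 24 carrier genes for cation exchange, all fell. SLC9A2 (NHE2), an exchanger of the plasma membrane that extrudes protons, had 1441, 1971 and 2399 at 20% oxygen and 317, 229 and 358 at 1% oxygen and was 6.43-fold lower (log2 fold change -2.68, SE 0.25, adjusted p = 5.08e-05). SLC9A4 (NHE4), a close relative, had 94.6, 119.6 and 169.7 at 20% oxygen and 0, 24.9 and 10.0 at 1% oxygen and was lower as well (log2 fold change -3.50, SE 0.78, adjusted p = 0.00269). Each hypoxia library was below each normoxia library in both genes, and SLC9A4 was close to 0 at 1% oxygen, where its value rested on single libraries. Without hypoxia replicate 1 its log2 fold change was -2.89 and without hypoxia replicate 2 it was -4.64. The genes are neighbours on chromosome 2 in GRCh38 (GENCODE 29), on the same strand, SLC9A4 from 102473303 to 102533972 and SLC9A2 from 102619707 to 102711318, with 85734 bases between them. SLC9B2, of another branch of the family, fell by 1.13 on the log2 scale. Its groups nearly met, with normalized counts of 169 in normoxia replicate 1 and 164 in hypoxia replicate 3. The deposited FPKM of SLC9B2 overlapped in these libraries, at 1.52 and 1.56. The sodium-potassium ATPase, whose gradient drives sodium-coupled carriers, had 1 of 7 subunit genes listed, ATP1B1, which rose (log2 fold change 1.38).

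Of 32 carrier genes for bicarbonate, chloride and other anions 1 rose and 3 fell. SLC12A4 (KCC1), which moves potassium and chloride out of the cell together, went from 543 ± 54.5 (SD, n = 3) to 1177 ± 82.2 normalized counts and rose 2.17-fold. SLC26A9, a chloride transporter, had 548, 723 and 636 at 20% oxygen and 268, 219 and 187 at 1% oxygen and was 2.83-fold lower (log2 fold change -1.50, SE 0.21, adjusted p = 0.000263). Its hypoxia libraries all lay below its normoxia libraries. SLC26A2, a sulfate carrier, had 175, 149 and 212 at 20% oxygen and 58.4, 71.1 and 90.3 at 1% oxygen and fell by 1.29 on the log2 scale, with groups that did not overlap. SLC26A10 fell by 1.27, and 51.7% of its exons overlap B4GALNT1 on the opposite strand, so its reads cannot be assigned with certainty. Carbonic anhydrases, which supply bicarbonate and protons to such carriers, had 4 of 14 genes listed, all higher, with log2 fold changes of 1.08 for CA5B, 1.55 for CA2, 1.59 for CA12 and 5.88 for CA9.

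The remaining carriers all fell. SLC35B4, which brings UDP-xylose and UDP-N-acetylglucosamine into the secretory pathway, had 1802, 1955 and 2306 at 20% oxygen and 675, 591 and 714 at 1% oxygen and was 3.06-fold lower (log2 fold change -1.61, SE 0.16, adjusted p = 5.83e-05). It was 1 of 24 nucleotide sugar carrier genes and relatives. SLC20A2 (PiT2), a sodium-coupled phosphate importer, had 1477, 1362 and 1521 at 20% oxygen and 657, 576 and 566 at 1% oxygen and fell by 1.28 on the log2 scale. The spread within its groups was small beside the difference. SLC35F2 had 900.2, 1059.5 and 1098 at 20% oxygen and 372, 271 and 423 at 1% oxygen and fell by 1.52. SLC35G1 had 262, 494 and 553 at 20% oxygen and 175, 146 and 176 at 1% oxygen and fell by 1.40. All 3 hypoxia libraries lay below all 3 normoxia libraries for each of these carriers.

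Of the 17 families with at least 2 members among the 65 carriers, 10 held members in both directions, 3 held risers alone (SLC6, SLC16 and SLC45) and 4 held fallers alone (SLC7, SLC9, SLC26 and SLC35). The carriers set aside at the start, among them SLC7A11 of the SLC7 family, are not counted in this tally. For the families that split, the count of a riser divided by the count of a faller in the same library is free of the library scale. That ratio was 1.47 ± 0.719 (SD, n = 3) at 20% and 138 ± 66.9 at 1% oxygen for SLC5A3 over SLC5A11, and 0.429 ± 0.0501 against 14.1 ± 1.21 for SLC1A7 over SLC1A4. Each ratio was higher in every hypoxia library than in every normoxia library, which the choice of a riser and a faller fixes in sign and which carries no test.

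**Figure D4:**
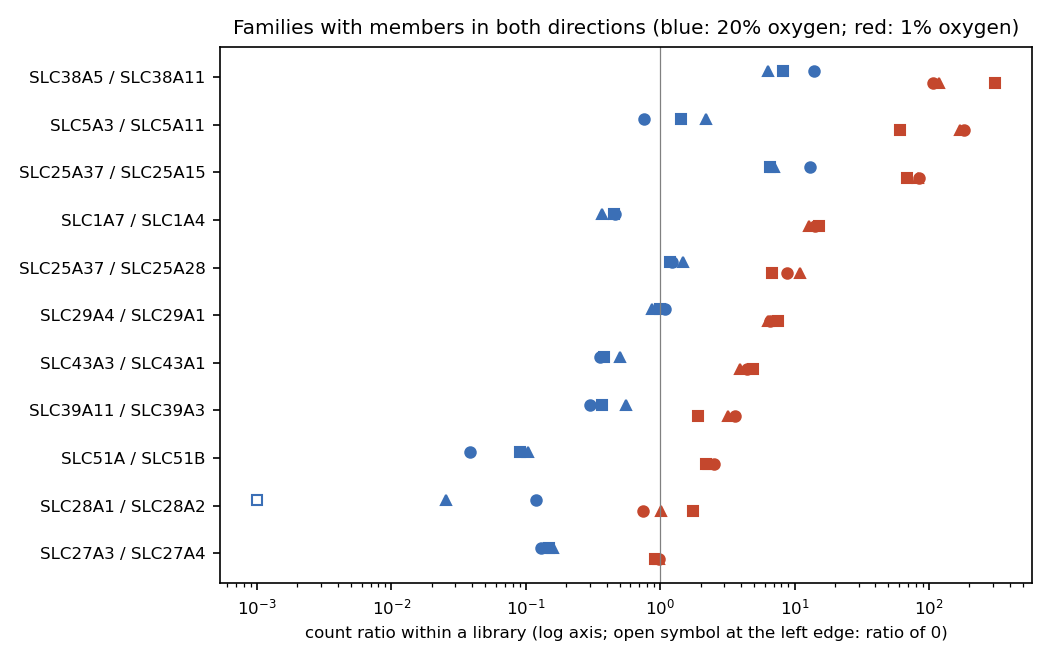
Ratio of the counts of a riser to a faller of the same family in each library (log axis), at 20% and 1% oxygen. The ratio of SLC51A to SLC51B moved from 0.0779 to 2.34 and that of SLC5A3 to SLC5A11 from 1.47 to 138 (means of 3 libraries).

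Levels between genes were compared on the authors' FPKM scale, which is per transcript length. FPKM also rests on another library scale, so ratios of its means can differ from the fold changes given above. By mean over the 6 libraries the 6 most abundant of the 65 carriers were SLC6A8, SLC16A3, SLC25A1, SLC6A6, SLC25A10 and SLC16A5. SLC6A8 stood at 98.6 ± 7.38 FPKM (SD, n = 3) at 20% oxygen and 563 ± 35.1 at 1% oxygen, SLC16A3 at 109 ± 24.7 FPKM (SD, n = 3) at 20% oxygen and 433 ± 94.0 at 1% oxygen, SLC25A1 at 114 ± 30.3 FPKM (SD, n = 3) at 20% oxygen and 199 ± 55.0 at 1% oxygen, and SLC6A6 at 51.0 ± 11.1 FPKM (SD, n = 3) at 20% oxygen and 165 ± 48.8 at 1% oxygen. SLC25A10 ran the other way, at 163 ± 39.5 FPKM (SD, n = 3) at 20% oxygen and 50.5 ± 13.4 at 1% oxygen, and SLC16A5 stood at 51.2 ± 0.807 FPKM (SD, n = 3) at 20% oxygen and 92.0 ± 3.74 at 1% oxygen. At 20% oxygen the means of SLC25A10, SLC25A1, SLC16A3 and SLC6A8 were in descending order, with SDs that overlap between neighbours. At 1% oxygen SLC6A8 and SLC16A3 stood above all others of the 65. Above 100 FPKM there were 3 of the 65 at 20% and 4 at 1% oxygen, and below 1 FPKM there were 10 and 11.

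**Figure D5:**
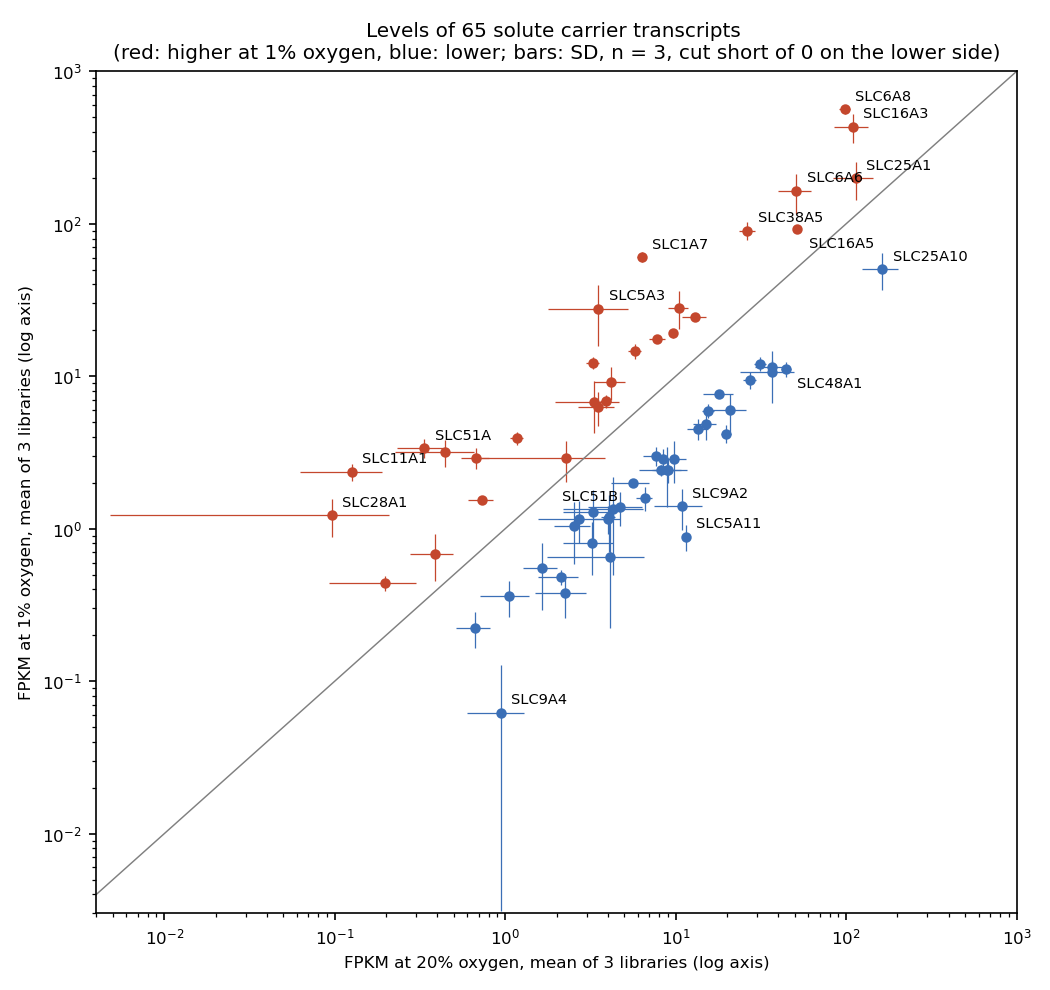
Mean FPKM of the 65 carriers at 20% oxygen (horizontal axis) and at 1% oxygen (vertical axis), both log axes, with SDs over 3 libraries as bars and the line of equality. SLC6A8 (98.6 and 563) and SLC16A3 (109 and 433) sit at the top, SLC25A10 (163 and 50.5) far below the line, and SLC28A1 and SLC9A4 near the bottom of the scale.

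Hypoxia-inducible factors bind DNA at a short core, ACGTG or GCGTG, so the RefSeq promoter windows of the carriers (GRCh38.p14, from 250 bases before to 50 bases after the annotated start) were searched for both words on both strands. Windows were found for 23 of 28 risers and 31 of 37 fallers. ACGTG occurred in 6 of 23 windows of risers (26.1%) and 11 of 31 of fallers (35.5%), against 27% of windows of all listed genes that rose, 28.5% of those that fell and 21.6% of all 27305 windows. GCGTG occurred in 47.8% of risers and 54.8% of fallers, in 43.6% of all listed genes that rose and 58.3% of those that fell, and in 36.3% of all windows. The palindrome CACGTG, which holds ACGTG on both strands, occurred in 5 windows of risers (21.7%) and 5 of fallers (16.1%), in 10.6% of all listed genes that rose and 13.9% of those that fell, and in 7.43% of all windows. The windows also differed in CG pairs, with a median of 26 in risers and 27 in fallers against 14 in all windows. A match is a description of letters in these windows and not a bound site. The windows of 4 carriers are shown because they set risers and a faller with the word beside the most abundant riser without it. Capitals mark ACGTG on either strand, and all are written in the direction of the gene: SLC1A7 from chr1:53142589-53142888 (minus strand), SLC38A5 from chrX:48470211-48470510 (minus), SLC25A33 from chr1:9539215-9539514 (plus) and SLC6A8 from chrX:153687676-153687975 (plus).
SLC1A7: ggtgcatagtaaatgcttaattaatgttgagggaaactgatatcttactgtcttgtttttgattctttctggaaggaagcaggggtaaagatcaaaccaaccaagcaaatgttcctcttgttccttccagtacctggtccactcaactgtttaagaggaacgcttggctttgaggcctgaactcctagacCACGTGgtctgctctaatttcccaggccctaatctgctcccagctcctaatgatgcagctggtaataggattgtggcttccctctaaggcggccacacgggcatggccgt
SLC38A5: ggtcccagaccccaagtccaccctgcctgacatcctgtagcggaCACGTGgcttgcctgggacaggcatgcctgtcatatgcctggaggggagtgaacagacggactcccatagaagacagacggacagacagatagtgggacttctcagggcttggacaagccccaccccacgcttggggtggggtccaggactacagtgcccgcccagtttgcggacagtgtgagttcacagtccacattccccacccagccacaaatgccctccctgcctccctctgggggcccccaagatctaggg
SLC25A33: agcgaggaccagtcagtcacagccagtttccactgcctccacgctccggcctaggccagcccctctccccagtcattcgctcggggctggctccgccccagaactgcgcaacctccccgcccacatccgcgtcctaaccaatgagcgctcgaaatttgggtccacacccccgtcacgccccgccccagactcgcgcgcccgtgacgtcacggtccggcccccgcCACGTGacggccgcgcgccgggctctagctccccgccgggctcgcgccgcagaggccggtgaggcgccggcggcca
SLC6A8: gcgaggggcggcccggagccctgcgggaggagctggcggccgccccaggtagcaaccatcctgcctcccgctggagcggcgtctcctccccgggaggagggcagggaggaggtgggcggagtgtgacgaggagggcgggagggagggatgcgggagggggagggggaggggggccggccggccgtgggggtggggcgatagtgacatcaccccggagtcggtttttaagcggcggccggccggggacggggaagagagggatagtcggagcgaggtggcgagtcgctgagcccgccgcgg
In the first 3 windows the word lies within CACGTG, beginning at position -60 in SLC1A7, -206 in SLC38A5 and -26 in SLC25A33 relative to the RefSeq start. SLC1A7 and SLC38A5 rose and SLC25A33 fell, so the word stood in promoters of carriers that moved in either direction. The window of SLC6A8 holds neither ACGTG nor GCGTG.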

How the data were processed

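RNA sequencing of 6 Hep3B samples, 3 at 20% and 3 at 1% oxygen, was analysed from 1 deposited table. Per the file headers and values, the deposited counts are whole reads per entry, not normalized. The authors also deposited FPKM, which divides counts by transcript length and library size. Adjusted p-values (FDR) and log2 fold changes of their own comparison stand beside these in the deposited table. TRIzol extraction and a SMARTER mRNA-seq library kit are named per the labels' protocols. Not given in the sources used here are the aligner, the counter, the annotation, the build and the strand setting. Depth is unknown, because the table holds only selected entries.

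The scale of a library was solved from the authors' log2 fold changes and the deposited counts of 1442 entries that exceed 200 counts per library (median absolute residual 0.000209). The scales were 1.06, 1.02 and 1.11 for normoxia and 0.994, 0.844 and 0.997 for hypoxia, so the fold changes are no check of the authors' scale. The 6 entries whose deposited log2 fold change lay more than 1 from that of their counts were left out. edgeR 4.0.16 (R 4.3.3) estimated a common dispersion of 0.0493, given here as a summary and not as a value set for the fit. It fitted 2675 entries by quasi-likelihood, filterByExpr removed 0, and p-values were Benjamini-Hochberg adjusted over all entries. Standard errors are from the same test. DESeq2 1.42.0 and limma 3.58.1 were alternatives.

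Members, substrate classes, partner lists and tests were chosen with earlier results of these data known. Every carrier may be named; values in every library are given for the 12 largest rises and falls with a mean of at least 50 normalized counts, the 2 largest changes in each class, the 6 highest by FPKM and those nearest the table's limits. SLC5A12, SLC38A5, SLC51B and SLC7A6 are given that way too, chosen after their values were seen. Positions, GC content and shared 50-base words come from GENCODE 29 (GRCh38), joined by Ensembl ID, which matched 65 of 65. Promoter sequences are from RefSeq (GRCh38.p14). Deviations of same-numbered libraries correlated at -0.376, -0.142 and 0.474 over 2602 entries, positively in replicate 3 alone, so the numbers were not taken as pairs. Between differently numbered libraries the correlations ran from -0.546 (normoxia replicate 3 with hypoxia replicate 2) to 0.597 (normoxia replicate 1 with hypoxia replicate 2). The main fit used no pairing.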

Additional observations from a re-analysis of the deposited data

How the results depend on the processing

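No carrier reversed under any of the alternatives run, which were 3 other library scales, DESeq2, a test against a 2-fold change, limma on FPKM with pseudocounts of 0.1 and 1, 2 other filters, keeping the deviating entries, a replicate block and leaving out libraries. The carriers had been selected on these same libraries with changes past 1 on the log2 scale, so the lack of reversals is no independent check. Carriers called higher fell from 28 to 18 with median-of-ratios size factors, with the 37 lower calls kept in number, and carriers called lower fell from 37 to 21 against a 2-fold change. Median-of-ratios scaling shifted all fold changes down, so that only calls of higher carriers were lost to it, while the second alternative tests a larger difference. Leaving out each library in turn gave between 28 and 28 higher and between 36 and 37 lower, the one lost call being SLC7A6 without normoxia replicate 3. With the replicate number as a block, 28 were higher and 37 lower, but the samples share only a number. Limma on log2(FPKM + 0.1) lost SLC6A20 and SLC25A36, with adjusted p of 0.0614 and 0.313. The fold changes of SLC28A1 and SLC9A4, each with a library at 0 counts, moved by over 1.5 times when a single library was left out. Since the table lists only selected entries, carriers that changed little were not analysed here, and the number of carriers called does not measure how many responded.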
